A study of Mus musculus with 14 samples.

Results

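Chemokine receptors are the proteins by which a cell senses chemokines, the small secreted factors that direct immune cells into and through tissues. The 8 genes described here are Ccr7 and Ackr4, whose proteins bind Ccl21, together with Ccr1, Ccr2, Cxcr2, Cxcr3, Cxcr4 and Ackr3. They were chosen by symbol, as the rows of the hippocampal gene count table whose Ensembl identifiers carry these names in GENCODE M21, and they are 8 of the 55536 Ensembl genes in that table. All 8 had at least 10 counts over the 14 mice and were among the 38070 genes tested. RNA was sequenced from whole hippocampus after perfusion with cold PBS, in mice at 10 months of age. MRL mice (n = 4) were B6.MRL-Faslpr/J, which carry the lpr allele of the death receptor Fas and develop lupus-like disease. MRL-IRAK4-KD mice (n = 4) carried the same allele and a kinase-dead form of IRAK4, the kinase that relays signals from Toll-like and interleukin-1 receptors. C57BL/6 mice (n = 3) carried neither, and IRAK4-KD mice (n = 3) by their labels carried the kinase-dead form alone. All groups were on the C57BL/6 background, the mutation was present in every cell and not in the brain alone, and these are bulk libraries, in which fewer cells of a type and less RNA per cell cannot be told apart.

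Ccr7 guides T cells and dendritic cells toward Ccl19 and Ccl21, whereas Ackr4 is an atypical receptor that binds these chemokines and Ccl25 and removes them without signalling to G proteins. Ccr1 and Ccr2 are receptors of monocytes and macrophages, and Ccr2 with its ligand Ccl2 is known for bringing monocytes out of the bone marrow. Cxcr2 is the main chemokine receptor of neutrophils, and Cxcr3 is carried by activated T cells and answers to the interferon-induced chemokines Cxcl9, Cxcl10 and Cxcl11. Cxcr4 and Ackr3 share the ligand Cxcl12, Cxcr4 as a signalling receptor and Ackr3 as a scavenger, and in brain both are also known from neurons, glia and vessels.

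Total counts were between 279941472 and 572398312 per library. These counts came from read coverage, at 1.40 to 2.08 counts per read, so that a count is less than a read. On the first principal component MRL-IRAK4-KD replicate 4 stood at 113 and the other libraries between -20.1 and 4.68. The library labelled IRAK4-KD replicate 3 had 0 counts of the Fas transcript that is at 0 in all lpr mice and at 345 to 584 counts in C57BL/6 mice. It had 514 counts of a second Fas transcript, Fas-204, which stood at 268 to 964 counts in lpr mice and 0 to 7 in C57BL/6 mice, so that its Fas transcripts were those of an lpr mouse, against its label. Its summed striatal markers were at 638 counts scaled to 1000000 per library (CPM) against 137 to 221 CPM in the other 13 libraries. Summed markers of the hippocampus were at 396 to 794 CPM over all 14 libraries. Results are therefore also given without both of these libraries where that matters.

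Scaled to the length of their exons, the receptors fell into a wide range of levels, with Ackr3 and Cxcr4 well above the rest. Ackr3 stood at 2.93 ± 0.47 CPM per kilobase of exon (mean ± SD over 14 mice) and Cxcr4 at 1.25 ± 0.323. Ackr3 was above Cxcr4 in 14 of 14 mice, and Cxcr4 was above Ccr1, the next gene, in 14 of 14 mice, by a ratio of means of 10.2. Below them the order was close. Ccr1 had 0.122 ± 0.064 CPM per kilobase, Ackr4 0.0862 ± 0.0457, Ccr2 0.0582 ± 0.043 and Cxcr3 0.0369 ± 0.0153, and each neighbour was within the spread of the next. Ccr1 was above Ackr4 in 11 of 14 mice, Ackr4 above Ccr2 in 11 and Ccr2 above Cxcr3 in 8. Cxcr2 at 0.0146 ± 0.0245 and Ccr7 at 0.0118 ± 0.0125 CPM per kilobase came last, and both were at 0 counts in several mice. Cxcr2 was above Ccr7 in 5 of 14 mice and its mean was above that of Ccr7 in MRL mice alone of the 4 groups. The order of the others also turned in single groups, Ackr4 being above Ccr1 in C57BL/6 mice (0.0894 and 0.0788 CPM per kilobase) and Cxcr3 above Ccr2 in MRL-IRAK4-KD mice (0.0371 and 0.0281).

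**Figure D1:**
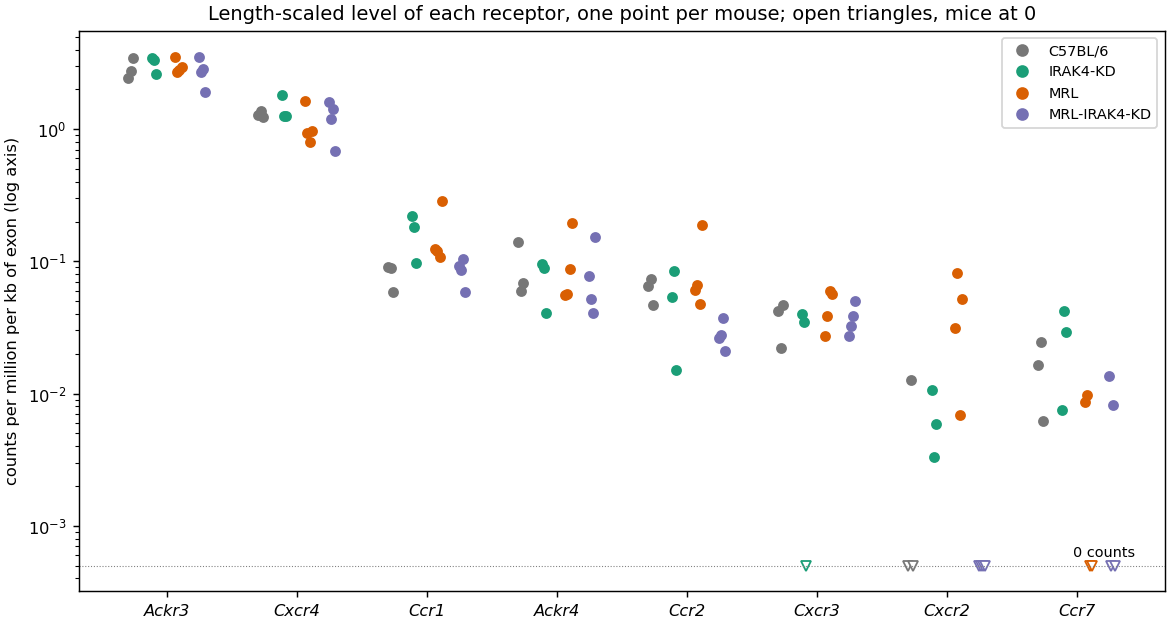
Level of each receptor in CPM per kilobase of exon on a log axis, with the genes ordered by their mean over 14 mice, 1 point per mouse, colours for the 4 groups and open triangles for mice at 0 counts. Ackr3 and Cxcr4 lie at 0.682 or above in every mouse, whereas no other receptor exceeds 0.286.

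The stretches before the start of 4 of these genes are shown, those of the pair most abundant per length and those of Cxcr2 and Ccr1, whose groups are described at length below. RefSeq promoter windows of GRCm38.p6 (mm10) matched 7 of the 8 members, all but Ccr7. Capitals mark matches, on either strand, to the core GAGGAA bound by the myeloid factor PU.1, to the interferon-gamma activated motif TTCNNNGAA or to the TATA motif TATAAA, which may overlap a match on the opposite strand. The windows are given on the strand of the gene and end at its start, less any base inside the GENCODE gene, at chr1:90203730-90203979 (+) for Ackr3, chr1:128592300-128592549 (-) for Cxcr4, chr1:74153744-74153988 (+) for Cxcr2 and chr9:123968693-123968942 (-) for Ccr1.
Ackr3: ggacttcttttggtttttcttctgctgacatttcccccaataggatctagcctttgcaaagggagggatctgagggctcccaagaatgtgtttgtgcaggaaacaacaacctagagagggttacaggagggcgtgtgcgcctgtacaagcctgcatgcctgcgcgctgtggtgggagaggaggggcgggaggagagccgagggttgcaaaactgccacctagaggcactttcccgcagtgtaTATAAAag
Cxcr4: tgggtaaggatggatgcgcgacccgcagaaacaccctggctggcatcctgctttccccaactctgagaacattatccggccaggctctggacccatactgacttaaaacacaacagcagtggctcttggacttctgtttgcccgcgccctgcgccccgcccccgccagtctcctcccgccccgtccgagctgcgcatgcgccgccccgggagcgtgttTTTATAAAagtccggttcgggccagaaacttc
Cxcr2: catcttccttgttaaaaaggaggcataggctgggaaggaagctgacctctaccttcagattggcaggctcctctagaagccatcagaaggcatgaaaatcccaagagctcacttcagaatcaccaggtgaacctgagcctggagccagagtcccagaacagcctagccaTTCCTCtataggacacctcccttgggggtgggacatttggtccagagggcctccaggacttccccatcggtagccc
Ccr1: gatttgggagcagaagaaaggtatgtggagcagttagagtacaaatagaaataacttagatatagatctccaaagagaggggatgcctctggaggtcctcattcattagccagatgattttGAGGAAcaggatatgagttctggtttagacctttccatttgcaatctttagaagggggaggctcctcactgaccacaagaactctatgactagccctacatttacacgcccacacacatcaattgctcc
The TATA letters began 8 bases before the start in Ackr3 and 32 before it in Cxcr4, they occurred 185 before it in Ackr4, whose window lies inside its gene and is not shown, and 12.4% of the 32851 promoter windows of 250 bases held them somewhere. The PU.1 letters occurred once each in the windows of Cxcr2, Ccr1 and Cxcr3, and in 23.3% of all windows. None of the 7 windows held TTCNNNGAA, which 7.02% of all windows did. Such letters describe the sequence only.

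None of the 8 receptors passed an adjusted p of 0.05 in any of the 5 comparisons tested by edgeR's quasi-likelihood test. Between MRL and MRL-IRAK4-KD mice 0 of 8 passed, where 0.0972% of all genes did, and 3 of 8 (Ccr1, Ccr2 and Cxcr2, all higher in MRL mice) had an unadjusted p below 0.05, where 11.4% of all genes did. Between MRL and C57BL/6 mice 0 of 8 passed, as did 0% of all genes, and 2 of 8 (Ccr1 and Cxcr2, higher in MRL mice) were at the unadjusted threshold, against 5.55% of all genes. Between IRAK4-KD and C57BL/6 mice 0 of 8 passed (0.147% of all genes) and 1 of 8, Ccr1, was at the unadjusted threshold (3.8% of all genes). Between MRL-IRAK4-KD and IRAK4-KD mice 0 of 8 passed (0.0735% of all genes) and 2 of 8, Ccr1 and Cxcr2, were lower at the unadjusted threshold (8.63% of all genes). The fold changes of MRL over MRL-IRAK4-KD mice had a median of 0.29 on the log2 scale over the 8 genes, also with Cxcr2 set at its bound given below, beside 0.0023 over all genes. DESeq2 called 1 of the 8, Cxcr2, in this comparison and in the interaction described last, and 0 of 8 in the others, where it called 197 genes in all between MRL and C57BL/6 mice. limma-voom called 0 of 8 in every comparison. On simulated counts for MRL over MRL-IRAK4-KD mice DESeq2 called more unchanged genes than its threshold allows, which edgeR and limma-voom did not. Those counts were drawn with the dispersions that edgeR estimated, and only genes of a higher mean level than Cxcr2 were changed. The interaction was not simulated, so the simulation does not decide the calls of Cxcr2.

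**Figure D2:**
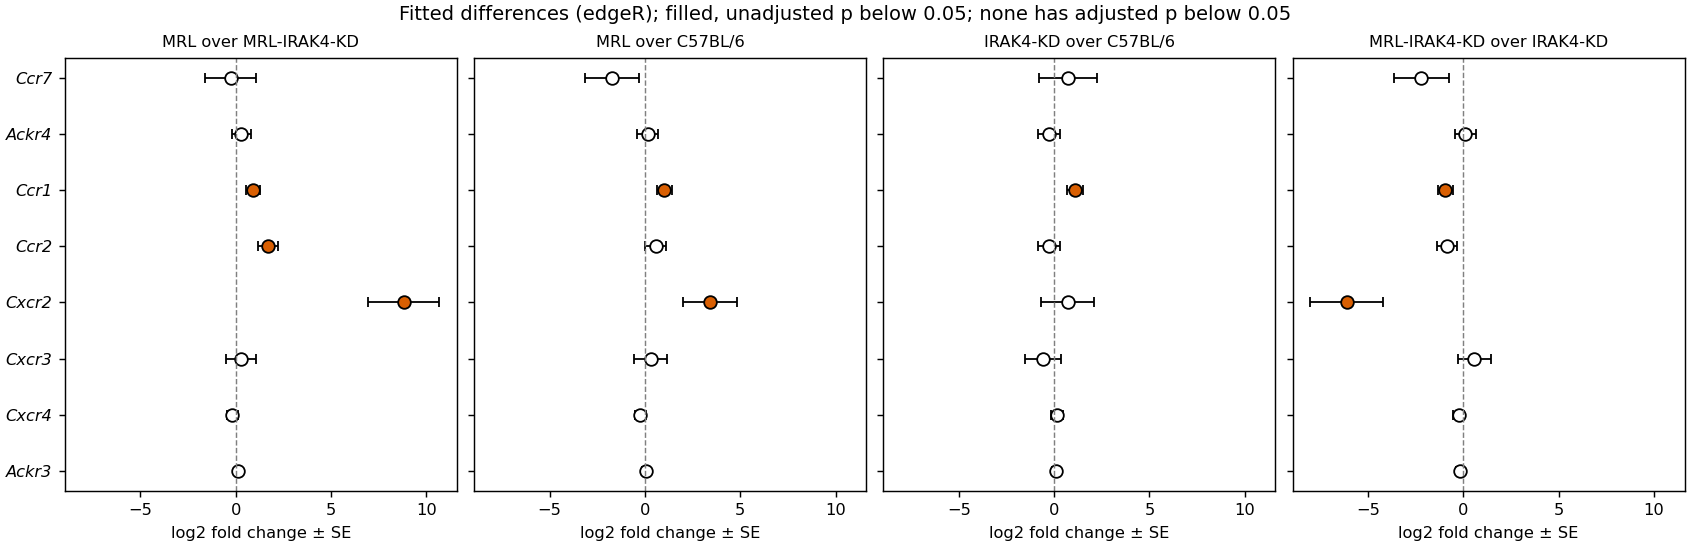
Fitted log2 fold change of each receptor with its standard error in 4 comparisons, filled where the unadjusted p is below 0.05. Ccr1, Ccr2 and Cxcr2 lie to the right in MRL over MRL-IRAK4-KD mice, the fitted value of Cxcr2 depends on the prior count since MRL-IRAK4-KD mice have 0 counts, and no adjusted p is below 0.05.

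Cxcr2 (ENSMUSG00000026180.8, mm10 chromosome 1, 74153989 to 74161246, plus strand) was read in every MRL mouse and in no MRL-IRAK4-KD mouse. MRL replicates 1 to 4 had 44, 143, 10 and 76 counts, or 0.0946, 0.25, 0.0211 and 0.159 CPM, and all 4 MRL-IRAK4-KD mice had 0. C57BL/6 mice had 0, 11 and 0 counts, and IRAK4-KD mice had 13, 4 and 10. MRL replicates 2, 4 and 1 thus stood above all other mice, while MRL replicate 3 lay within the range of the C57BL/6 and IRAK4-KD mice. The 10 counts in the IRAK4-KD group were those of the library labelled replicate 3, whose Fas transcripts were those of an lpr mouse. The absence of Cxcr2 counts in MRL-IRAK4-KD mice, and the bounds below, therefore hold for the groups as labelled.

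The mean in MRL mice was 0.131 ± 0.0973 CPM (SD, n = 4). A library of MRL-IRAK4-KD mice with 3 counts would have had 0.00619 to 0.00966 CPM. Against the mean of this floor per library the mean of Cxcr2 in MRL mice was at least 16.8-fold higher. This bound is one of means and does not hold for each mouse, MRL replicate 3 being at 0.0211 CPM. The test gave an unadjusted p of 0.000629 and an adjusted p of 0.252 (edgeR), whereas DESeq2 gave an adjusted p of 0.000214 and limma-voom with quality weights 0.0579, within a range of 0.000214 to 0.573 over all alternatives. Over C57BL/6 mice the log2 fold change was 3.41 ± 1.41 (SE, edgeR adjusted p = 0.895), with all C57BL/6 counts from replicate 2. Without that mouse the C57BL/6 group is at 0, and the fitted value of 8.86 is no measure of size. Without MRL replicate 2 it was 2.87, with an unadjusted p of 0.0979 in the edgeR fit, and that p was also above 0.05 without MRL replicate 4 (0.0626) or C57BL/6 replicate 1 or 3 (0.0823 each). MRL-IRAK4-KD mice were also below all 3 IRAK4-KD mice, whose mean was at least 2.58-fold higher by the same floor (edgeR unadjusted p = 0.00843, adjusted p = 0.549). Without the library labelled IRAK4-KD replicate 3 that unadjusted p was 0.0154 (edgeR adjusted p = 0.891).

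The annotation holds a pair of Cxcr2 transcripts, and each library's counts went to only one of them. Cxcr2-201 took all counts of MRL replicates 1 and 3 and of IRAK4-KD replicates 1 and 2, and Cxcr2-202 all counts of MRL replicates 2 and 4, C57BL/6 replicate 2 and the library labelled IRAK4-KD replicate 3. At these depths the split between transcripts was therefore all or none, and their shares were not compared between groups.

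Other genes of neutrophils were high in the same mice. The 6 neutrophil markers summed to 7.56, 32.1, 1.65 and 20.1 CPM in MRL replicates 1 to 4, to 0.368 to 3.36 CPM in MRL-IRAK4-KD, 1.1 to 3.07 in C57BL/6 and 2.06 to 5.68 in IRAK4-KD mice, and none of the 6 was at 0 in a whole group. Of these markers 5 of 6 were higher in MRL than in MRL-IRAK4-KD mice with an unadjusted p under 0.05, which 11.4% of all genes had in either direction. At an adjusted p it was 0 of 6 (edgeR). Among the 5 were S100a9 (log2 fold change 3.40 ± 0.80) and S100a8 (3.35 ± 0.80), the subunits of calprotectin, and the granule protein gene Ngp (3.36 ± 0.87). Summed red cell markers were at 83.9 to 369 CPM in MRL mice against 52.9 to 193 CPM in MRL-IRAK4-KD mice, and the PBS perfusion left them readable in every mouse. The part of neutrophils and of remaining blood in the Cxcr2 values was not tested.

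**Figure D3:**
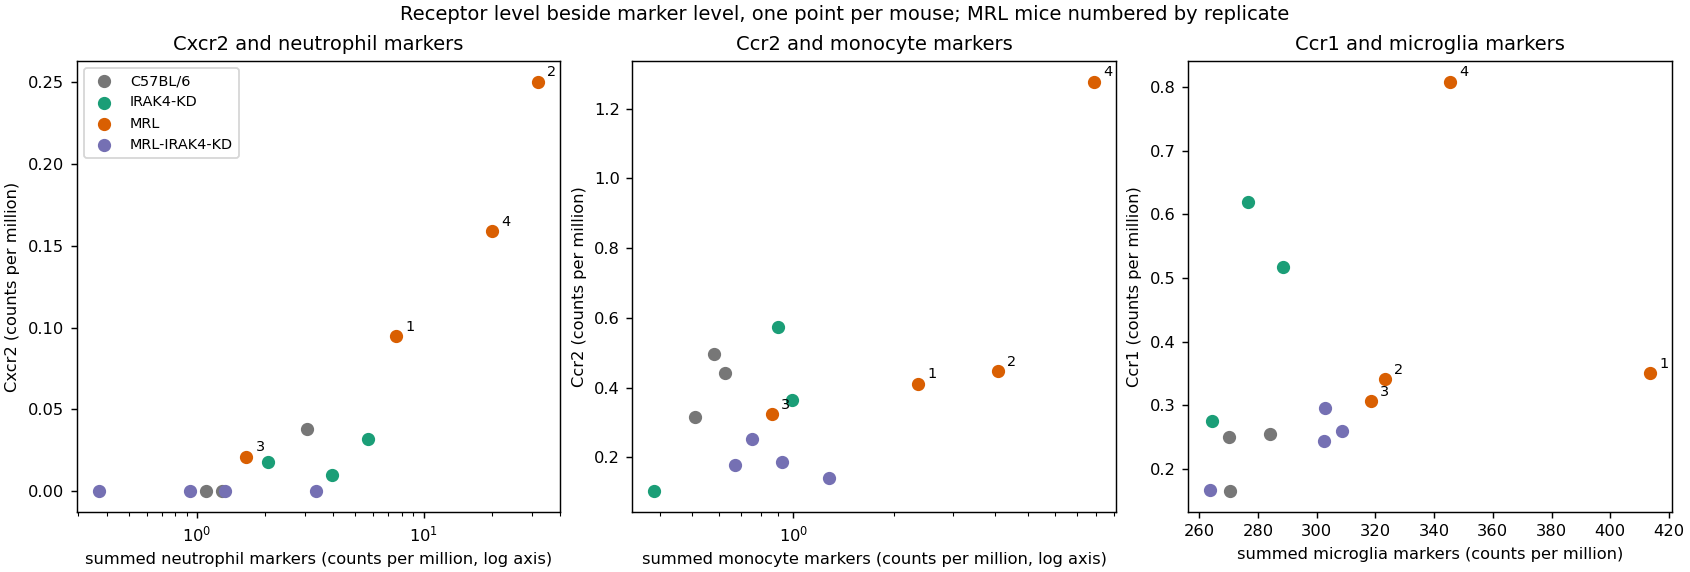
Receptor level on the vertical axis against the summed level of marker genes on the horizontal axis, both in CPM, 1 point per mouse: Cxcr2 with 6 neutrophil markers, Ccr2 with 3 monocyte markers and Ccr1 with 8 microglia markers. Numbers mark the MRL replicates. MRL replicate 2 is highest for Cxcr2 (0.25) and for neutrophil markers (32.1), and MRL replicate 4 for Ccr2 (1.28) and for monocyte markers (7.88).

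The ligands of Cxcr2 are the chemokines that call neutrophils. Of the 5 measured, 2 were higher in MRL than in MRL-IRAK4-KD mice with an unadjusted p under 0.05, 1 was lower, and 0 passed an adjusted p of 0.05. Among all genes 11.4% had such an unadjusted p in either direction. Ppbp, a chemokine of platelets, had 0.328 ± 0.222 CPM in MRL and 0.00918 ± 0.0108 in MRL-IRAK4-KD mice (log2 fold change 5.02 ± 1.26, edgeR adjusted p = 0.327), and Cxcl1 had 0.2 ± 0.149 and 0.0676 ± 0.026 CPM (1.56 ± 0.54, adjusted p = 0.432). Cxcl5 went the opposite way, at 0.701 ± 0.33 and 1.31 ± 0.673 CPM (-0.91 ± 0.42, adjusted p = 0.439). Cxcl2 and Cxcl3 were not past the unadjusted threshold, and Cxcl3 was at 0 in MRL-IRAK4-KD and C57BL/6 mice. The median over the 4 ligands above 0 in both groups was 2.41, beside 0.0023 over all genes. Their summed level was not higher in MRL mice, at 1.26 ± 0.404 CPM for the 5 ligands against 1.39 ± 0.666 CPM in MRL-IRAK4-KD mice (SD).

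Ccr2 (ENSMUSG00000049103.14, chromosome 9, 124101950 to 124113557, plus strand) was higher in every MRL mouse than in any MRL-IRAK4-KD mouse. MRL replicates 1 to 4 had 0.411, 0.446, 0.323 and 1.28 CPM, and MRL-IRAK4-KD replicates had 0.177, 0.188, 0.253 and 0.142 CPM. C57BL/6 mice had 0.441, 0.497 and 0.315 CPM and IRAK4-KD mice 0.364, 0.573 and 0.103 CPM, so that 3 of the 4 MRL mice lay within the range of the C57BL/6 mice. It was MRL-IRAK4-KD mice, at a mean of 0.19 ± 0.0463 CPM (SD, n = 4), that stood below C57BL/6 mice at 0.418 ± 0.0937 (n = 3).

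The log2 fold change of Ccr2 in MRL over MRL-IRAK4-KD mice was 1.69 ± 0.51 (SE, edgeR unadjusted p = 0.00541, adjusted p = 0.401). It was 1.06 without MRL replicate 4 (adjusted p = 0.643), the highest mouse, and 1.57 without both libraries that stand apart (adjusted p = 0.34). DESeq2 gave an adjusted p of 0.0565, and the range over all alternatives was 0.0565 to 0.643. Over C57BL/6 mice the value was 0.56 ± 0.54 (edgeR adjusted p = 1), and without MRL replicate 4 it was -0.07. IRAK4-KD over C57BL/6 mice gave -0.27 ± 0.58, which became 0.17 without both of those libraries. MRL-IRAK4-KD over IRAK4-KD mice gave -0.86 ± 0.54 (edgeR unadjusted p = 0.132). That became -1.19 without both of those libraries (unadjusted p = 0.0319, adjusted p = 0.705, edgeR) and -0.30 without IRAK4-KD replicate 2. In stretches of 100 bases, 53 of the 6709 in Ccr2 transcripts are also found in another gene, so that reads there are uncertain, and no other member shares any.

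Several Ccr2 transcripts took counts. Over the 14 mice Ccr2-202 held 46.6% and Ccr2-203 41.8% of the gene's transcript counts. Ccr2-203 had 128, 130, 14 and 408 counts in MRL replicates 1 to 4, 0, 51, 57 and 0 in MRL-IRAK4-KD mice, 127, 82 and 0 in C57BL/6 mice, and 0 in all 3 IRAK4-KD mice. Ccr2-202 was above 0 in every mouse. The value of Ccr2 in MRL replicate 4 thus came mostly from Ccr2-203, with 408 of its 611 counts.

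Ccr1 (ENSMUSG00000025804.5, chromosome 9, 123962124 to 123968692, minus strand) separated the groups in a pattern of its own. MRL mice had 0.35, 0.341, 0.306 and 0.809 CPM and MRL-IRAK4-KD mice 0.26, 0.244, 0.296 and 0.167 CPM, without overlap, although the lowest MRL mouse and the highest MRL-IRAK4-KD mouse differed by little. C57BL/6 mice had 0.254, 0.25 and 0.165 CPM and IRAK4-KD mice 0.619, 0.518 and 0.276 CPM, again without overlap. The mean of Ccr1 was thus higher with the kinase-dead form in mice labelled as without lpr, and lower with it in mice labelled as carrying lpr. The lowest IRAK4-KD value, 0.276 CPM, was that of the library labelled replicate 3, whose Fas transcripts go against its label.

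The log2 fold change of Ccr1 was 0.90 ± 0.37 (SE) in MRL over MRL-IRAK4-KD mice (edgeR adjusted p = 0.437), 1.02 ± 0.40 in MRL over C57BL/6 mice (adjusted p = 0.882) and 1.08 ± 0.42 in IRAK4-KD over C57BL/6 mice (adjusted p = 1). MRL-IRAK4-KD over IRAK4-KD mice gave -0.96 ± 0.39 (adjusted p = 0.553). The interaction, the difference between the 2 effects of the mutation, was 1.97 ± 0.56 on the log2 scale with an unadjusted p of 0.00348 and an adjusted p of 0.914. The interaction came to 2.11 without both libraries that stand apart and to 1.55 without MRL replicate 4. Without that mouse MRL over MRL-IRAK4-KD was 0.47, with an unadjusted p of 0.171, and MRL over C57BL/6 0.59 (unadjusted p = 0.118, edgeR). The unadjusted p of MRL over MRL-IRAK4-KD was also above 0.05 by limma-voom (0.102), with the replicate block (0.0705) and without MRL-IRAK4-KD replicate 4 (0.0572), in each case across all genes. That of IRAK4-KD over C57BL/6 was above it without IRAK4-KD replicate 1 (0.0992), IRAK4-KD replicate 2 (0.0572) or C57BL/6 replicate 3 (0.0867). MRL over C57BL/6 lost it with the replicate block (0.0751) and without C57BL/6 replicate 3 (0.094), and MRL-IRAK4-KD over IRAK4-KD without IRAK4-KD replicate 1 (0.129), IRAK4-KD replicate 2 (0.0703) or MRL-IRAK4-KD replicate 4 (0.0556). The adjusted p of MRL over MRL-IRAK4-KD lay between 0.239 and 0.665 over all alternatives.

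Groups that do not overlap were found for 3 of the 8 receptors (Ccr1, Ccr2 and Cxcr2) between MRL and MRL-IRAK4-KD mice, where 5.26% of all genes tested did not overlap. Between MRL and C57BL/6 mice it was 1 of 8, Ccr1, against 9.63% of all genes, and between IRAK4-KD and C57BL/6 mice 1 of 8, Ccr1, against 11.2%. Between MRL-IRAK4-KD and IRAK4-KD mice it was 1 of 8, Cxcr2, against 8.74%. In those 3 comparisons a count of 1 of 8 is close to what all genes show.

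**Figure D4:**
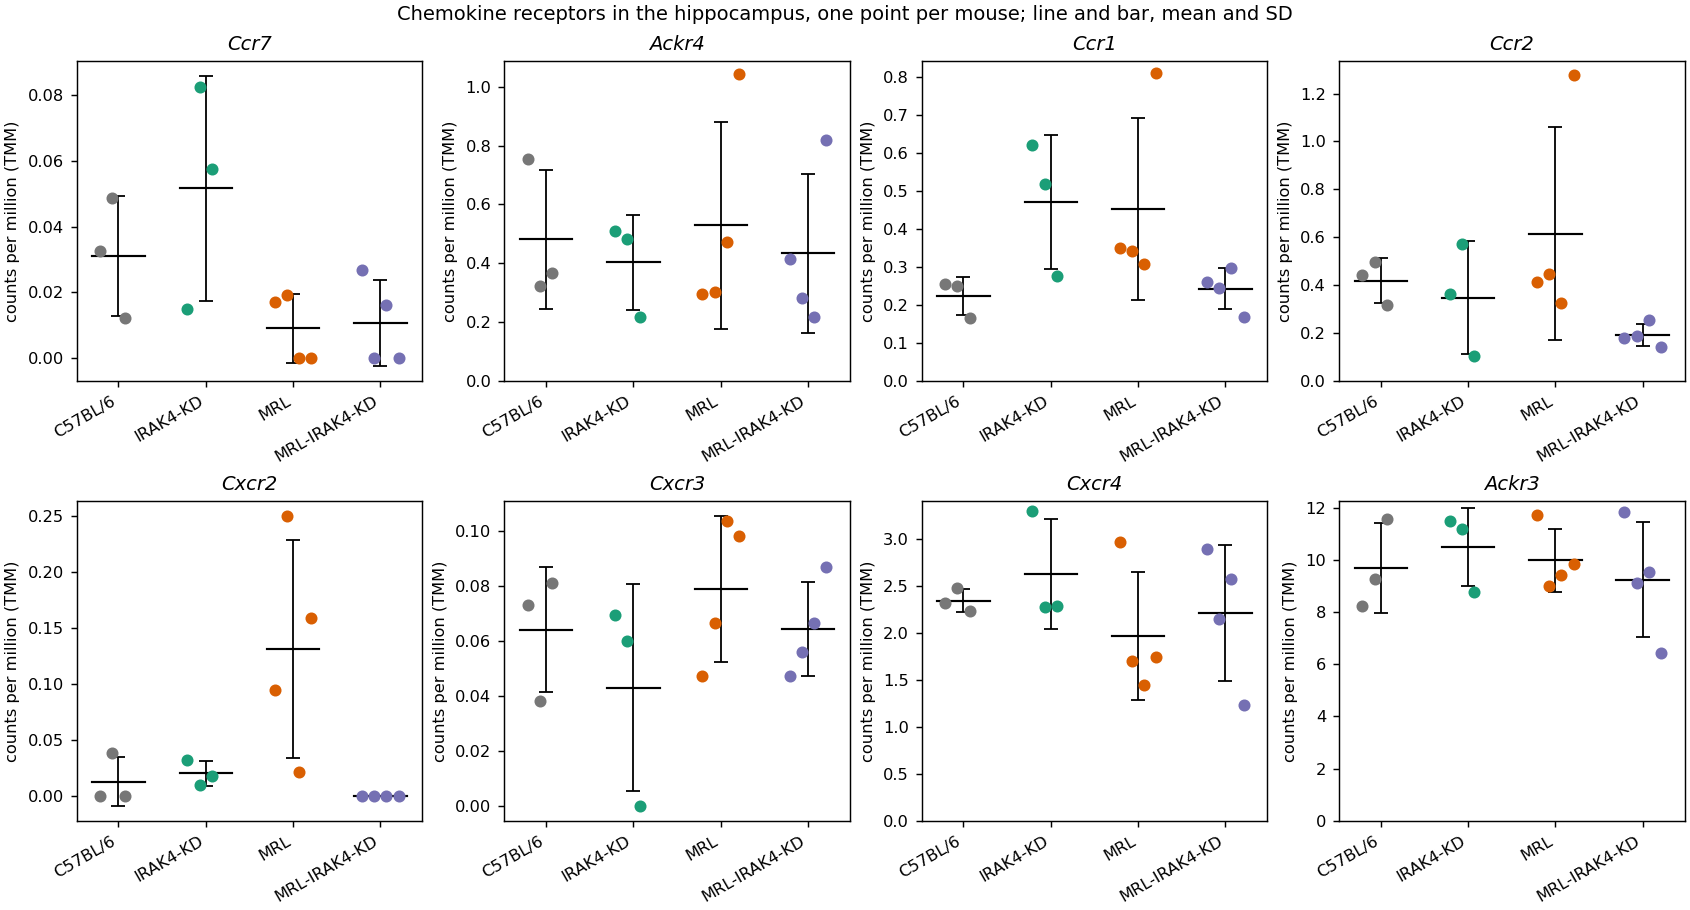
Level of each receptor in CPM after TMM scaling, 1 point per mouse in the 4 groups, with the group mean as a line and the SD as a bar (n = 3 or 4). Cxcr2 is at 0 in all 4 MRL-IRAK4-KD mice, Ccr1 and Ccr2 have 1 high MRL mouse, replicate 4, and the groups overlap for Cxcr4 and Ackr3.

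Markers of monocytes, microglia and border macrophages were read beside Ccr1 and Ccr2. The 3 monocyte markers Ly6c2, Chil3 and Plac8 summed to 2.35, 4.08, 0.866 and 7.88 CPM in MRL replicates 1 to 4, to 0.671 to 1.28 CPM in MRL-IRAK4-KD, 0.511 to 0.628 in C57BL/6 and 0.386 to 0.991 in IRAK4-KD mice. All 3 of 3 were higher in MRL than in MRL-IRAK4-KD mice with an unadjusted p under 0.05, and 0 of 3 at an adjusted one. Among all genes 11.4% had such an unadjusted p in either direction. MRL replicate 4, the highest mouse for Ccr1 and Ccr2, was also the highest for these markers. The 8 microglia markers summed to 318 to 414 CPM in MRL mice against 264 to 309 CPM in MRL-IRAK4-KD mice, with 3 of 8 higher at an unadjusted p below 0.05, and to 270 to 284 CPM in C57BL/6 and 264 to 288 CPM in IRAK4-KD mice. The 6 markers of border macrophages overlapped, at 7.67 to 13.5 CPM in MRL mice against 5.73 to 9.71 CPM in MRL-IRAK4-KD mice, with 0 of 6 at that threshold. No marker of these 3 lists was at 0 in a whole group. Of the 6 neutrophil markers, 6 had positive log2 fold changes in IRAK4-KD over C57BL/6 mice (median 1.28). In MRL-IRAK4-KD over IRAK4-KD mice 0 of 6 were positive, and 0 of 6 had an unadjusted p below 0.05 in either comparison. In the interaction 5 of 6 did, against 4.17% of all genes, and 0 of 6 at an adjusted p (edgeR). The part of any of these cells, neutrophils included, in the Ccr1 and Ccr2 values was not tested.

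Of the 8 ligands of Ccr1 and Ccr2, 3 were higher in MRL than in MRL-IRAK4-KD mice with an unadjusted p under 0.05 and 0 passed the adjusted threshold. Among all genes 11.4% had such an unadjusted p in either direction. Ccl2, the ligand that gives Ccr2 its best known role, had 0.166 ± 0.0385 CPM in MRL and 0.0592 ± 0.019 in MRL-IRAK4-KD mice, ranges of 0.131 to 0.2 and 0.0451 to 0.0867 that did not overlap (log2 fold change 1.48 ± 0.40, edgeR adjusted p = 0.343). Ccl12, a mouse relative of Ccl2, had 0.614 ± 0.336 and 0.221 ± 0.0524 CPM (1.47 ± 0.41, adjusted p = 0.369), and Ccl8 had 0.263 ± 0.38 and 0.0373 ± 0.0482 CPM (2.77 ± 1.25, adjusted p = 0.439). Over C57BL/6 mice Ccl2, Ccl12 and Ccl6 were higher at the unadjusted threshold, which 5.55% of all genes passed. Ccl6 was higher by 0.86 ± 0.25 on the log2 scale (edgeR adjusted p = 0.65). Ccl9 had 2.31 ± 0.907 and 2.65 ± 1.32 CPM (-0.19 ± 0.30). The median of the 8 ligands was 0.61 in MRL over MRL-IRAK4-KD mice, beside 0.0023 for all genes.

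The Ccl21 receptors were both low. Ccr7 (ENSMUSG00000037944.8, chromosome 11, 99144196 to 99155077, minus strand) had 8, 11, 0 and 0 counts in MRL replicates 1 to 4, 13, 0, 7 and 0 counts in MRL-IRAK4-KD mice, 12, 14 and 5 counts in C57BL/6 mice and 6, 33 and 32 counts in IRAK4-KD mice. It was thus read in all C57BL/6 and IRAK4-KD mice, in 2 of 4 MRL mice and in 2 of 4 MRL-IRAK4-KD mice, at 33 counts or fewer everywhere. The groups overlapped in all 4 comparisons. Its log2 fold change was -0.26 ± 1.34 (SE) in MRL over MRL-IRAK4-KD mice (edgeR adjusted p = 0.958) and -1.72 ± 1.43 in MRL over C57BL/6 mice (adjusted p = 1), so that a difference was not detectable at this depth. The library labelled IRAK4-KD replicate 3 held 32 of these counts.

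Ackr4 (ENSMUSG00000079355.5, chromosome 9, 104084157 to 104126933, minus strand) was read in every mouse. MRL mice had 0.297, 0.303, 0.471 and 1.04 CPM, MRL-IRAK4-KD mice 0.415, 0.281, 0.218 and 0.818, C57BL/6 mice 0.753, 0.324 and 0.366 and IRAK4-KD mice 0.51, 0.48 and 0.218. The ranges of all 4 groups overlapped, and the highest mouse was MRL replicate 4. The log2 fold change was 0.29 ± 0.51 in MRL over MRL-IRAK4-KD mice (edgeR adjusted p = 0.839) and -0.25 without MRL replicate 4. The gene lies within Acad11 on the opposite strand and overlaps 2 further models there, and whether the counting used strand is not given in the sources used here, so that reads of Acad11 cannot be told apart from those of Ackr4. Of the Ackr4 transcript counts 64.8% went to Ackr4-202, 23% to Ackr4-203 and 11.2% to Ackr4-201, and Ackr4-201 was highest in C57BL/6 replicates 1 and 2, at 129 and 44 counts against 26 or fewer elsewhere.

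The ligands of these receptors differed between groups far more than the receptors did. The 9 annotated copies of the Ccl21 genes, which resemble each other closely and among which reads could be split, summed to 14 ± 3.96 CPM in MRL and 11.5 ± 1.52 in C57BL/6 mice, and to 0.183 ± 0.0593 in MRL-IRAK4-KD and 0.238 ± 0.114 in IRAK4-KD mice. Of the 12 annotated ligand genes tested, 6 were higher in MRL than in MRL-IRAK4-KD mice at an adjusted p below 0.05 (edgeR), which 0.0972% of all genes passed. The same 6 were lower in IRAK4-KD than in C57BL/6 mice, where 0.147% of all genes passed. All 6 were Ccl21 copies, among which reads could be split, so they are not separate results. Ccl19, the second ligand of Ccr7, had 0.197 ± 0.0822 CPM in MRL and 0.269 ± 0.203 in MRL-IRAK4-KD mice at its chromosome 4 copy (log2 fold change -0.45 ± 0.50, edgeR adjusted p = 0.719). Ccl25, which Ackr4 also binds, had 8.21 ± 0.916 and 8.51 ± 0.274 CPM (-0.05 ± 0.13, adjusted p = 0.899). Mice with few Ccl21 counts thus had Ackr4 counts in the same range as mice with many.

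**Figure D5:**
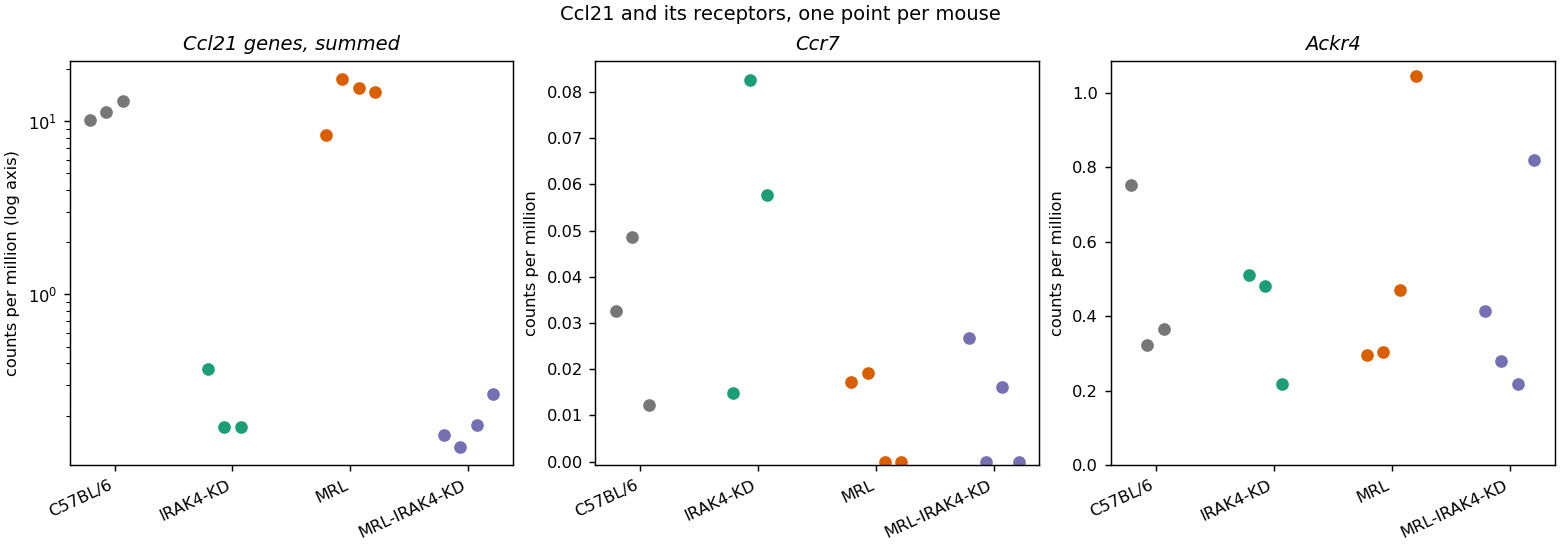
Summed level of the Ccl21 genes on a log axis, and levels of Ccr7 and Ackr4 on linear axes, in CPM with 1 point per mouse in the 4 groups. Ccl21 lies between 0.132 and 0.369 in the 7 mice with the kinase-dead form and between 8.27 and 17.4 in the 7 others, while the Ccr7 and Ackr4 values of the groups overlap.

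Cxcr3 (ENSMUSG00000050232.6, chromosome X, 101731535 to 101734269, minus strand) was low and even. It had 22, 38, 49 and 47 counts in MRL replicates 1 to 4, 23, 20, 29 and 27 counts in MRL-IRAK4-KD mice, 27, 11 and 33 counts in C57BL/6 mice and 28, 24 and 0 counts in IRAK4-KD mice, the 0 being the library labelled replicate 3. The groups overlapped, and the log2 fold change in MRL over MRL-IRAK4-KD mice was 0.30 ± 0.79 (SE, edgeR adjusted p = 0.908). T cell markers did not set the groups apart either, at a sum of 2.1 to 3.32 CPM in MRL mice against 2.18 to 4.02 CPM in MRL-IRAK4-KD mice, with 0 of 7 at an unadjusted p below 0.05. In IRAK4-KD mice the sum ranged from 1.92 to 7.8 CPM, and Cd4 alone reached 5.98 CPM.

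The 3 ligands of Cxcr3 all had higher means in MRL than in MRL-IRAK4-KD mice, 2 of them at an unadjusted p below 0.05 and 0 at an adjusted one. Among all genes 11.4% had such an unadjusted p in either direction. Cxcl10 had 1.16 ± 0.577 CPM in MRL and 0.337 ± 0.167 in MRL-IRAK4-KD mice, with ranges of 0.593 to 1.95 and 0.203 to 0.581 (log2 fold change 1.78 ± 0.45, edgeR adjusted p = 0.321). Cxcl9 had 0.269 ± 0.371 and 0.0698 ± 0.0267 CPM (1.94 ± 0.89, adjusted p = 0.439). Cxcl11 had 0.147 and 0.0373 CPM and was not past the unadjusted threshold. The median of the 3 was 1.94, while the receptor's own value was 0.30.

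Cxcr4 (ENSMUSG00000045382.6, chromosome 1, 128588199 to 128592293, minus strand) did not differ detectably between groups. It had 2.96, 1.7, 1.44 and 1.74 CPM in MRL mice, 2.89, 2.14, 2.57 and 1.23 in MRL-IRAK4-KD mice, 2.32, 2.47 and 2.23 in C57BL/6 mice and 3.29, 2.28 and 2.29 in IRAK4-KD mice. MRL replicate 1 was high and the other MRL mice were below all C57BL/6 mice. The log2 fold change was -0.17 ± 0.27 (SE) in MRL over MRL-IRAK4-KD mice (edgeR adjusted p = 0.813) and -0.25 ± 0.29 in MRL over C57BL/6 mice (adjusted p = 1). Cxcr4-201 took 97.9% of its transcript counts.

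Ackr3 (ENSMUSG00000044337.5, chromosome 1, 90203980 to 90216751, plus strand) was the most abundant of the 8 per length. It had 9.99 ± 1.2 CPM in the 4 MRL mice (SD), 9.23 ± 2.21 in the 4 MRL-IRAK4-KD mice, 9.68 ± 1.72 in the 3 C57BL/6 mice and 10.5 ± 1.49 CPM in the 3 IRAK4-KD mice. The lowest mouse was MRL-IRAK4-KD replicate 4, at 6.44 CPM, and the other 13 lay between 8.22 and 11.8 CPM. The log2 fold change was 0.11 ± 0.18 (SE) in MRL over MRL-IRAK4-KD mice (edgeR adjusted p = 0.813), and -0.03 without both libraries that stand apart. Ackr3-201 took 99.7% of its transcript counts.

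Their shared ligand Cxcl12, made by stromal cells and vessels, had 49.7 ± 6.3 CPM in MRL and 39.8 ± 4.1 in MRL-IRAK4-KD mice (log2 fold change 0.32 ± 0.11, edgeR unadjusted p = 0.0137, adjusted p = 0.436). The ranges were 42.1 to 57.3 and 35.8 to 45.1 CPM and overlapped. Markers of endothelium were higher beside it, at a sum of 102 to 174 CPM in MRL mice against 71.4 to 91.8 CPM in MRL-IRAK4-KD mice. An unadjusted p below 0.05 was found for 5 of 6, against 11.4% of all genes, and an adjusted one for 0 of 6. Their part in the Cxcl12 value was not tested. Mif, an alternative ligand of Cxcr4, had 52.2 ± 2.86 and 74.7 ± 46.3 CPM (-0.52 ± 0.29, adjusted p = 0.464), the spread in MRL-IRAK4-KD mice reaching 144 CPM in 1 mouse. Of the 3 ligands 1 was past the unadjusted threshold.

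Beyond Ccr1 and Cxcr2 the interaction of the mutation with lpr had unadjusted p above 0.05 for every receptor. In this test 0 of 8 receptors passed the adjusted threshold, where 0.00263% of all genes did, and 2 of 8 had an unadjusted p below 0.05, against 4.17% of all genes. For Cxcr2 the fitted interaction was 9.53 ± 2.38 on the log2 scale (edgeR unadjusted p = 0.00214, adjusted p = 0.914, DESeq2 adjusted p = 0.0401, and 0.0401 to 1 over all alternatives), a value whose size depends on the 0 counts of MRL-IRAK4-KD mice. For Ccr2 it was 1.42 ± 0.77 (unadjusted p = 0.0858, adjusted p = 0.914). This Ccr2 value was 1.86 without the library labelled IRAK4-KD replicate 3 (edgeR unadjusted p = 0.0163) and 1.74 without both libraries that stand apart (0.019). It was 0.80 without MRL replicate 4 (edgeR unadjusted p = 0.251). No alternative gave it an adjusted p below 0.728.

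Of the 16 other chemokine receptors tested, 0 passed an adjusted p of 0.05 in MRL over MRL-IRAK4-KD or MRL over C57BL/6 mice (edgeR). Over C57BL/6 mice 2 were higher and 1 lower at the unadjusted threshold, which 5.55% of all genes passed in either direction. Ackr2, an atypical receptor that scavenges inflammatory chemokines, had 1.44 ± 0.248 CPM in MRL and 0.693 ± 0.154 in C57BL/6 mice (1.05 ± 0.27, adjusted p = 0.558), and Cx3cr1, the fractalkine receptor of microglia, had 57.5 ± 4.15 and 47.8 ± 4.13 CPM (0.27 ± 0.10, adjusted p = 0.847). The lower one was Ccr4, at 0 counts in MRL and a mean of 0.013 CPM in C57BL/6 mice. The 14 receptors above 0 in both groups had a median of 0.35 in MRL over MRL-IRAK4-KD mice.

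Of 22 genes that act downstream of these receptors, 3 were higher in MRL than in MRL-IRAK4-KD mice with an unadjusted p under 0.05, a share near the 11.4% of all genes, 0 were lower, and 0 passed the adjusted threshold. They were Pik3r5, a subunit of phosphoinositide 3-kinase gamma (log2 fold change 0.82 ± 0.23, edgeR adjusted p = 0.393), Dock2, a Rac activator of migrating leukocytes (0.54 ± 0.17, adjusted p = 0.408), and Arrb1, an arrestin that binds activated receptors (0.37 ± 0.13, adjusted p = 0.427). Over C57BL/6 mice 3 were higher at the unadjusted threshold, Dock2, Pik3cg and Rgs1, and 0 were lower, where 5.55% of all genes passed it. Pik3cg, the catalytic subunit that pairs with Pik3r5, was higher by 1.02 (adjusted p = 0.89) and Rgs1, which dampens receptor signals, by 1.08 (adjusted p = 0.899). Ptk2b had 714 ± 177 CPM in MRL and 843 ± 82.4 in MRL-IRAK4-KD mice (-0.24 ± 0.15). The median of the 22 was 0.13 in MRL over MRL-IRAK4-KD mice.

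Lists of markers of further cells and tissues were read as well. B and plasma cell markers had 0 of 5 and meningeal markers 0 of 6 past the unadjusted threshold in MRL over MRL-IRAK4-KD mice, choroid plexus markers 0 of 7, striatal markers 0 of 8, dendritic cell markers 1 of 5 higher, red cell markers 3 of 5 higher, pituitary markers 3 of 8 higher and 1 lower, and hippocampal markers 5 of 8 lower. None passed an adjusted p of 0.05 (edgeR). The unadjusted threshold was passed by 11.4% of all genes in that comparison, in either direction. Choroid plexus markers summed to 66.1 to 7793 CPM, highest in MRL-IRAK4-KD replicate 4, and pituitary markers to 1.63 to 87.4 CPM, highest in MRL replicate 3. Their part in the receptor values was not tested.

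The genes whose levels ran most like each receptor over the 14 mice were sought by Pearson's r of log2(CPM + 0.1), among genes with a mean of at least 0.1 CPM. Cxcr2 ran closest to Pml, a nuclear body protein (r = 0.968, Spearman's rho = 0.819), Mmp8, the neutrophil collagenase (r = 0.962, rho = 0.899), and Slfn4 (r = 0.96, rho = 0.91), and r was 0.97, 0.965 and 0.959 without MRL-IRAK4-KD replicate 4. Ccr2 ran closest to Fam111a (r = 0.918), Yap1 (0.881) and Gbp8 (0.857). Ccr1 ran closest to Plekho2 (0.812), Il2ra (0.788) and Gm9925 (0.784).

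Cxcr4 ran closest to Fgfr1 (r = 0.941), Arhgef26 (0.926) and Nsmce3 (0.92), and Ackr3 to Mgme1 (0.951), Gtf2b (0.933) and Cdc42se1 (0.93), and each r was at least 0.867 without MRL-IRAK4-KD replicate 4. Ackr4 ran closest to Gm43258 (0.908), Cd247 (0.863) and Dnah14 (0.849). For Ccr7 the closest were Gm14164 (0.866), Gpr139 (0.845) and Amy2a2 (0.796), and for Cxcr3 they included Mmp25 (0.822) and Gm38317 (0.798), at counts too sparse to order them. The libraries share depth and composition, the genes were picked as the highest of all searched, and these values are descriptions without a test.

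The chromosomal neighbourhood of the receptors held no called gene when MRL mice were set against MRL-IRAK4-KD or C57BL/6 mice, or IRAK4-KD against C57BL/6 mice. Within 1 Mb of Ccr1 43 genes were tested, of which 3 were higher and 0 lower in MRL than in MRL-IRAK4-KD mice with an unadjusted p under 0.05, and within 1 Mb of Ccr2, whose window overlaps that of Ccr1, 2 of 37 were higher and 0 lower. Around Cxcr2 2 of 50 were higher and 2 lower. Over all genes the share in either direction was 11.4%, more than in any of these windows. Ccr1, Ccr2 and Ackr4 lie on chromosome 9 and Cxcr2, Cxcr4 and Ackr3 on chromosome 1, none of them on chromosome 4 with the Ccl21 genes.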

How the data were processed

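Hippocampal RNA of 14 mice was sequenced, and the authors deposited whole-number counts per gene and transcript without normalization. The submitters' processing notes name HISAT2 2.1.0, StringTie 2.1.0 and mm10. The sheet of the sequencing core gave deposited counts of total reads per library. The annotation is not given in the sources used here, and all 55536 Ensembl identifiers are in GENCODE M21. The samples' labels name a KAPA HyperPrep mRNA kit whereas the paper names SMART-seq, and strand handling is not given.

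Groups were taken from the labels. A minimum of 10 summed counts was set, and the remaining genes went into edgeR 4.0.16 under R 4.3.3 (quasi-likelihood, robust, TMM, 1 model of 4 groups), and p was adjusted by Benjamini-Hochberg over 38070 genes, a gene being called below 0.05. CPM are counts per 1000000 after TMM, also divided by exon length. The order of the 8 receptors was taken only per length. Alternatives used DESeq2 1.42.0, limma 3.58.1, other scalings, filters and left-out mice. edgeR, DESeq2 and limma-voom were tested on simulated data for MRL over MRL-IRAK4-KD mice.

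The members, lists, motifs and tests were chosen with earlier results of these data known, and TATAAA after the sequences were seen. All members were named in each comparison, and of each other list up to 5 genes by smallest unadjusted p below 0.05 in MRL over MRL-IRAK4-KD or C57BL/6 mice, the gene with the highest mean CPM and the ligands of Ccr7 and Ackr4. A few further ligands were named after their values were seen. Floors of 3 counts cover counting error only. Promoters came from RefSeq, and figures from matplotlib 3.10.9. Some results are not reported here.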

Additional observations from a re-analysis of the deposited data

Results flagged for a closer look

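In MRL mice the highest mouse stood far from the other 3 for both Ccr1 and Ccr2. The gap from replicate 4 to the next mouse took a share of 0.912 of the whole range for Ccr1 and 0.871 for Ccr2, above Dixon's 95% critical value for 4 samples. Chance gives such a gap in about 1 of 20 groups. It was looked for in every receptor with unequal values in MRL and in MRL-IRAK4-KD mice, so a flag by chance is likely among so many. Both flags come from the same mouse and are not independent. This mouse had 0.809 CPM of Ccr1 and 1.28 CPM of Ccr2, beside 7.88 CPM of summed monocyte markers, also the highest of all 14 mice.

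For 2 of 8 receptors the effect of the kinase-dead mutation differed between mice labelled as with and without lpr at an unadjusted p below 0.05. That threshold was passed by 4.17% of all genes, and 0 of 8 receptors passed the adjusted one (edgeR). Both fits include the library labelled IRAK4-KD replicate 3, whose Fas transcripts go against its label. The difference was 1.97 on the log2 scale for Ccr1 (edgeR unadjusted p = 0.00348, adjusted p = 0.914). For Cxcr2 the fitted difference was 9.53 (unadjusted p = 0.00214, adjusted p = 0.914), with 0 counts in all 4 MRL-IRAK4-KD mice and 10 to 143 counts in MRL mice.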

How the results depend on the processing

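The deposited counts come from coverage, Ccr7, Cxcr2 and Cxcr3 rest on few of them, and nothing in the labels says more of the mice than that they are separate samples, so that p-values measure the spread between these samples. Same-numbered mice had correlations of -0.25 to 0.37 in their deviations, so no pairing by number was evident. Mice of different numbers were not compared in this way, so these values do not settle whether the numbers pair mice. With the replicate block, Ccr1 in MRL over MRL-IRAK4-KD mice was 0.76, Ccr2 1.39 and Cxcr2 8.61, with 0 receptors called in each comparison, and the interaction called 2 genes instead of 1.

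Genes called moved most with the tool. DESeq2 called 395 in MRL over MRL-IRAK4-KD, 197 in MRL over C57BL/6, 166 in IRAK4-KD over C57BL/6, 283 in MRL-IRAK4-KD over IRAK4-KD mice and 59 in the interaction, and limma-voom 232, 67, 145, 266 and 24, against 37, 0, 56, 28 and 1 by edgeR. Fitting only the groups compared gave 18 in MRL over MRL-IRAK4-KD, 95 in IRAK4-KD over C57BL/6 and 6 in MRL-IRAK4-KD over IRAK4-KD mice. The interaction had 4 without the filter, and without both libraries that stand apart it had 11 and MRL over C57BL/6 had 20. DESeq2 called 1 receptor, Cxcr2, in MRL over MRL-IRAK4-KD mice and in the interaction. Leaving out 1 mouse gave 25 to 52, 0 to 21, 33 to 106, 11 to 65 and 1 to 15 genes called in these 5, and 0 receptors each time. The highest counts of the last 4 came without MRL-IRAK4-KD replicate 4. Counts also moved by over 1.5 times to 6 in MRL over C57BL/6 without MRL replicate 1, to 33 to 36 in IRAK4-KD over C57BL/6 without C57BL/6 replicate 1 or 3 or any IRAK4-KD mouse, and to 11 in MRL-IRAK4-KD over IRAK4-KD without IRAK4-KD replicate 2 or 3. The interaction had 6 without MRL replicate 1, 3 without MRL-IRAK4-KD replicate 1, and 2 without MRL replicate 4 or MRL-IRAK4-KD replicate 2. The cause of these moves was not tested.

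None of the values that changed sign passed an unadjusted p of 0.05. In MRL over MRL-IRAK4-KD mice Ackr3 was -0.044 by limma-voom and -0.028 without both libraries. In MRL over C57BL/6 mice Ackr4 was -0.30 with the replicate block, and Ackr3 -0.016 by library size and -0.0081 by limma-voom. Without both libraries IRAK4-KD over C57BL/6 gave Ackr4 0.048, Ccr2 0.17 and Cxcr3 0.012. In MRL-IRAK4-KD over IRAK4-KD mice Ackr4 was -0.47 by limma-voom, -0.41 with the block and -0.70 without both libraries, Cxcr3 -0.19 without them and Cxcr4 0.024 by limma-voom. In the interaction Ccr7 was -1.03 by limma-voom, Cxcr3 0.48 without both libraries, and Cxcr4 0.0024 with RLE size factors and 0.0019 by DESeq2.

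With 1 mouse left out, the ranges that crossed 0 were as follows. In MRL over MRL-IRAK4-KD mice they were -0.90 to 0.68 for Ccr7, -0.25 to 0.80 for Ackr4 and -0.020 to 0.25 for Ackr3. In MRL over C57BL/6 mice they were -0.42 to 0.61 for Ackr4, -0.071 to 0.77 for Ccr2 and -0.055 to 0.20 for Ackr3. In IRAK4-KD over C57BL/6 mice they were -0.46 to 0.22 for Ackr4, -0.83 to 0.17 for Ccr2, -1.12 to 0.0074 for Cxcr3 and -0.036 to 0.26 for Cxcr4. In MRL-IRAK4-KD over IRAK4-KD mice they were -0.40 to 0.31 for Ackr4 and -0.013 to 1.12 for Cxcr3. In the interaction they were -0.17 to 1.41 for Ccr7, -0.50 to 0.54 for Ackr4, -0.82 to 0.30 for Cxcr3 and -0.29 to 0.15 for Cxcr4. Ccr1 and Cxcr2 kept their direction in all 5 comparisons under every alternative run, and Ccr2 in MRL over MRL-IRAK4-KD mice.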
